A study of Mus musculus with 42 samples.

Results

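The genes described are 9 that carry the insulin, IGF1 and leptin signals into the cell: the receptors Insr, Igf1r and Lepr, the adaptors Irs1 and Irs2, the PI3-kinase subunits Pik3ca and Pik3r1, and the kinases Akt1 and Akt2. They were chosen by name for their place in the pathway, with earlier results of these data known. All 9 were found among the 54232 genes of the deposited count table. Insulin and IGF1 bind the receptor tyrosine kinases encoded by Insr and Igf1r, which phosphorylate the insulin receptor substrates Irs1 and Irs2. The substrates recruit PI3-kinase, made of a catalytic subunit (Pik3ca encodes p110alpha) and a regulatory subunit (Pik3r1 encodes p85alpha), and its lipid product brings the Akt kinases to the membrane, where they are switched on. Leptin, a hormone of fat cells, acts through Lepr, mainly by the JAK2 and STAT3 route, and in the brain the pathway is known for the control of feeding and for effects on hippocampal synapses.

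RNA was sequenced from 42 mouse brain libraries, 22 labelled hippocampus and 20 labelled cerebellum, after 12 weeks on a western diet with 42% fat or a control diet with 11% fat, either with NaKtide or without. This peptide, derived from the Na,K-ATPase, keeps the pump from signalling through the Src kinase. According to the labels, NaKtide came from a transgene induced by doxycycline at 300 mg/kg in the food, so the transgene and doxycycline went with NaKtide, and whether the other mice received doxycycline is not given in the labels. The promoter of the transgene, the strain, the sex and the age are not given there either, and the title of the series speaks of the adipocyte pump. The design text of the series describes liver and 2 adipose depots and 60 samples, against the 42 brain libraries of the labels; the labels were followed, and the conflict is not settled by the sources used here. The hippocampus label held 6 western diet with NaKtide, 5 western diet, 5 control diet with NaKtide and 6 control diet libraries, and the cerebellum label held 5 of each. Nothing in the labels ties each library to its own animal, so a p-value here covers the spread of these samples alone.

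The region labels were not borne out by defining markers. Gabra6, which granule cells of the cerebellum express, did not reach 1 CPM (the count scaled by library size) in 15 of 20 cerebellum libraries or in 21 of 22 hippocampus libraries, by label. Pcp2, a Purkinje cell gene, was under 1 CPM in 12 of the 20 libraries labelled cerebellum. Prox1, which marks dentate granule cells of the hippocampus, ran from 4.40 to 101 CPM in libraries labelled hippocampus and from 6.01 to 31.8 CPM in those labelled cerebellum, so the ranges overlapped. The labels serve below as names of libraries and not as tissues. Library totals ran from 4669374 to 9521002 counts.

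The 9 genes differed widely in abundance, which is compared between genes only on the authors' FPKM, a level per length of transcript. Over the 42 libraries Akt1 averaged 44.3 ± 3.78 FPKM and Akt2 averaged 12.9 ± 3.25 FPKM (SD, n = 42). Irs2 at 6.61 ± 1.95, Pik3r1 at 6.47 ± 1.90 and Pik3ca at 4.83 ± 0.870 FPKM came next. The receptors were lower, with 1.82 ± 0.509 FPKM for Insr and 1.74 ± 0.542 FPKM for Igf1r. Irs1 at 0.191 ± 0.156 and Lepr at 0.174 ± 0.129 FPKM were the lowest of the 9, with 531 and 344 counts in all 42 libraries together. Their values rest on 1 to 46 counts per library for Irs1 and on 1 to 30 for Lepr, so both carry a large counting error. Lepr did not pass the filter on low counts in the libraries labelled cerebellum, which leaves 8 of the 9 genes tested there. All 9 were tested in the libraries labelled hippocampus.

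Relative to its mean, Akt1 varied least over the libraries, with a coefficient of variation of 8.51%, and Irs1 varied most, with 80.9%. Of the 9 genes, 6 had their highest group mean in the western diet libraries labelled hippocampus, namely Insr, Igf1r, Irs1, Irs2, Pik3ca and Pik3r1. The share of all genes with their highest mean there was not worked out. Irs1 averaged 4.49 ± 1.46 CPM in that group (SD, n = 5). It then followed in the order 2.13 ± 1.05 CPM in western diet with NaKtide, 1.84 ± 1.28 in western diet (both labelled cerebellum, n = 5 each), 1.77 ± 0.752 in control diet labelled hippocampus (n = 6) and 1.51 ± 1.33 in control diet with NaKtide labelled cerebellum (n = 5). The lowest means of Irs1 were 1.00 ± 0.554 CPM in control diet with NaKtide (n = 5) and 0.811 ± 0.426 in western diet with NaKtide (n = 6), both labelled hippocampus, and 0.738 ± 0.0594 in control diet labelled cerebellum (n = 5). For each of the 9 genes, 0 of the 7 pairs of neighbours in the order of its group means were further apart than the sum of their SDs. A test for any difference among the 8 groups called 4 of the 9 genes at an adjusted p under 0.05, against 28.7% of the 17088 genes tested. The adjusted p by edgeR's quasi-likelihood test was 0.00344 for Irs1, 0.00746 for Insr, 0.0117 for Igf1r and 0.0398 for Irs2.

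**Figure D1:**
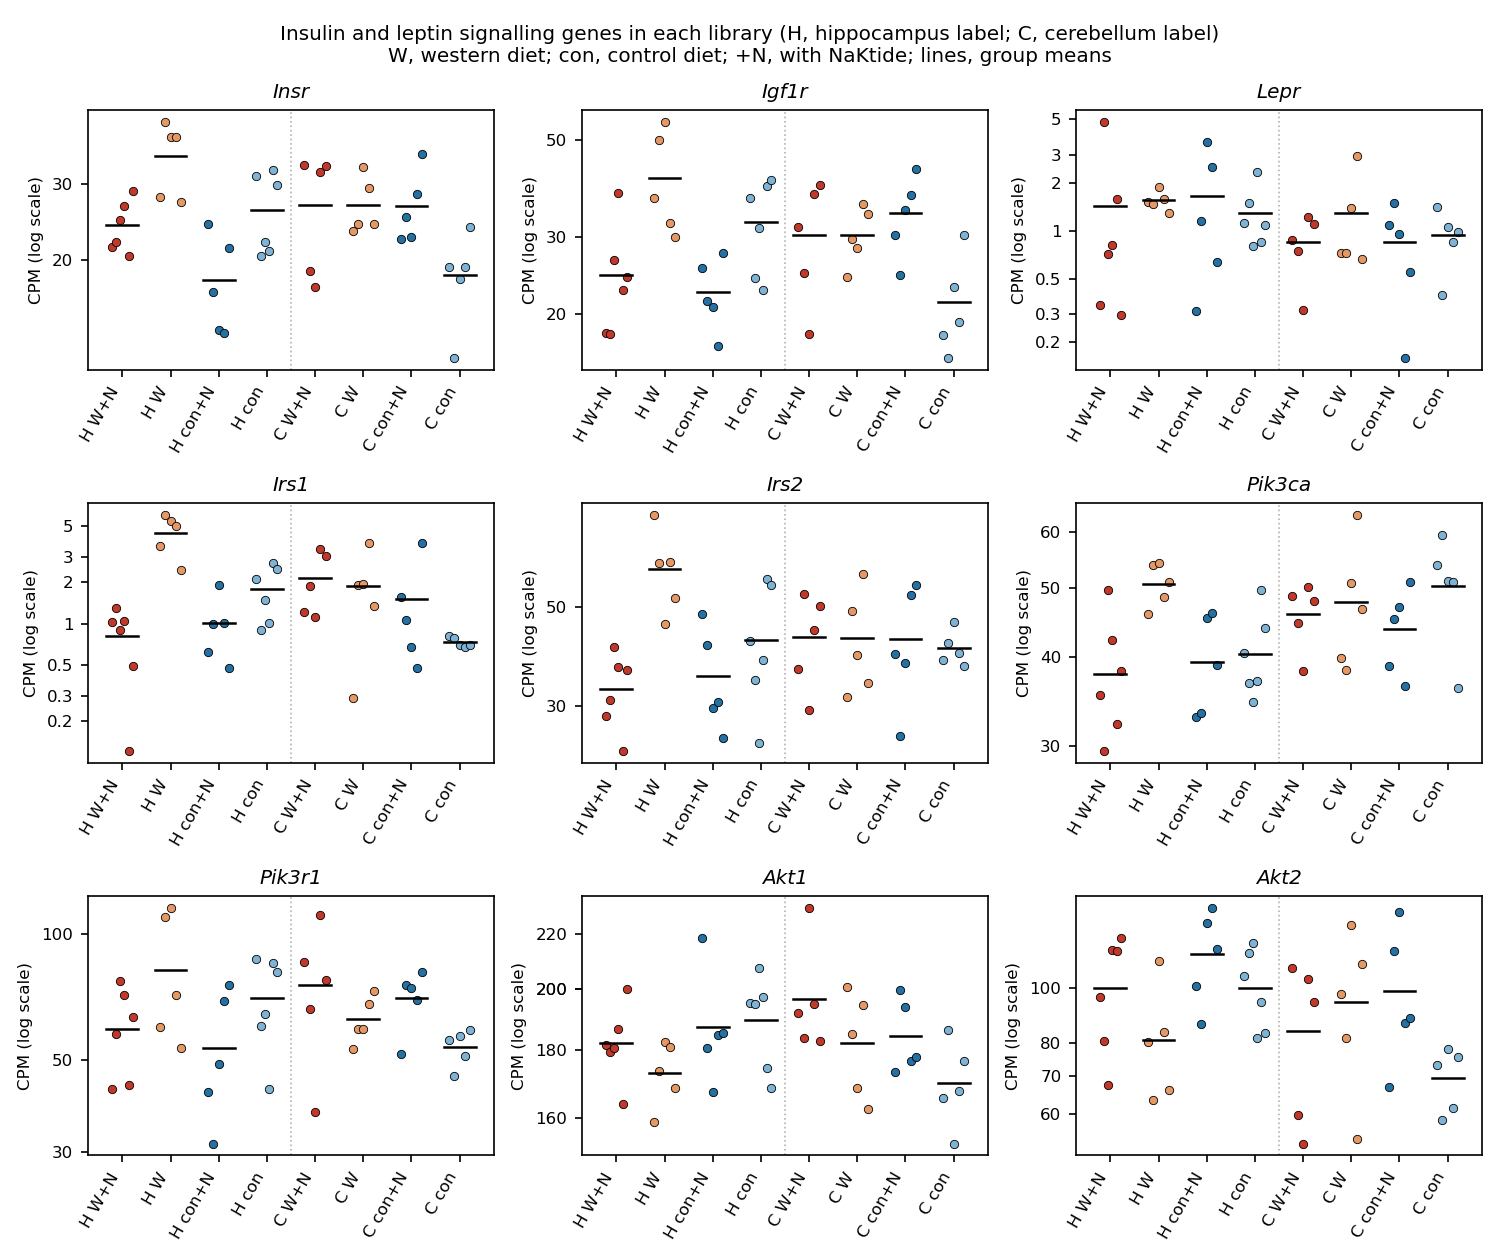
Level of each of the 9 genes in each library, as CPM on a log scale, for the 8 groups, with 1 point per library and a line at the group mean. Libraries labelled hippocampus stand left of the dotted line and those labelled cerebellum right of it. For Irs1 the 5 western diet libraries labelled hippocampus lie between 2.42 and 6.00 CPM, above all 6 with NaKtide, which lie between 0.122 and 1.28 CPM.

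Within a region label, western diet with against without NaKtide in the libraries labelled hippocampus was the only comparison in which any of the 9 genes passed the test as fitted. There 5 of the 9 genes were lower with NaKtide and none was higher: Irs1, Irs2, Igf1r, Insr and Pik3ca. In that comparison 33.7% of the 16442 genes tested were called, 16.3% as lower and 17.4% as higher, so changes were common among all genes. The median log2 fold change of the 9 genes was -0.50, against 0.05 over all genes tested. In such bulk libraries, fewer cells of a type and less RNA per cell cannot be told apart.

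The adaptors Irs1 and Irs2 were the 2 of the 9 genes whose libraries did not overlap between the groups, both lower with NaKtide. Of all genes tested, 13.2% had groups that did not overlap, 7.41% with the lower level on NaKtide. Irs1 had a lowest level of 0.122, a median of 0.961 and a highest of 1.28 CPM in the 6 western diet libraries with NaKtide. The 5 western diet libraries had 3.60, 6.00, 5.43, 5.01 and 2.42 CPM of Irs1. These values rest on 1 to 9 counts per library with NaKtide and on 15 to 46 without it. All 6 libraries with NaKtide were thus below the lowest western diet library. The log2 fold change of Irs1 was -2.51 (SE 0.409, adjusted p = 0.00117 by edgeR's quasi-likelihood test).

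Irs2, the other main substrate in brain and liver, had a lowest level of 23.9, a median of 33.6 and a highest of 40.8 CPM in western diet libraries with NaKtide. The western diet libraries had 80.6, 62.8, 45.9, 63.3 and 52.5 CPM. The lowest western diet library was again above every library with NaKtide. The log2 fold change was -0.91 (SE 0.206, adjusted p = 0.00437 by edgeR).

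Irs1 lies on chromosome 1 (chr1:82233101-82291416, GRCm38, minus strand) and Irs2 on chromosome 8 (chr8:10984681-11008458, minus strand). Because these 2 genes were the ones whose groups did not overlap, the 250 bases before the RefSeq start of each are shown, 5′ to 3′ on the strand of the gene (GRCm38.p6; chr1:82291440-82291689 and chr8:11008930-11009179). Capitals mark the E-box CACGTG, a palindrome that reads the same on both strands and is a known binding motif of basic helix-loop-helix factors.
Irs1: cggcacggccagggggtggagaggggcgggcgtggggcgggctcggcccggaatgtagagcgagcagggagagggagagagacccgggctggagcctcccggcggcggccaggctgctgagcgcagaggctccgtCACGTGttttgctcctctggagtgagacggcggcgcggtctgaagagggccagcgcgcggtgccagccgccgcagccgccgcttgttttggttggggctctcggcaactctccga
Irs2: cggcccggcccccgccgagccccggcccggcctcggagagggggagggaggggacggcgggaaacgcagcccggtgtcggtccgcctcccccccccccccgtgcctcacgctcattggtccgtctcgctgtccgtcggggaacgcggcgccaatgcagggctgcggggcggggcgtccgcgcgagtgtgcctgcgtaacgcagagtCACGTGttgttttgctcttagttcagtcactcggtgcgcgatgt

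The E-box ends 110 bases before the RefSeq start of Irs1 and 39 bases before that of Irs2. These RefSeq starts lie upstream of the starts in the gene coordinates above, which are from GENCODE, by more for Irs2 than for Irs1. The windows share 2 runs of 10 bases and none longer, GTCACGTGTT, which contains the E-box, and TGTTTTGCTC, which does not. The E-box was in 6.02% of the 32851 RefSeq promoter windows of that length, GTCACGTGTT on either strand in 23 of them (0.0700%) and TGTTTTGCTC in 21 (0.0639%). RefSeq windows were matched for 8 of the 9 genes, 14 windows in all, and the E-box was in the Irs1 and Irs2 windows only. The scan also took in the GC box, CCAAT box, FOXO site, cAMP response element and TATA box, in windows reaching 50 bases past the start. There the GC box was in 8 of the 14 windows, those of Irs1 and Irs2 among them, against 35.7% of all windows. The FOXO site was in neither. The windows are rich in G and C, with 72.4% for Irs1 and 72.8% for Irs2. A match of letters is a description of the sequence, and no binding was measured here.

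Among the receptors, Igf1r, the IGF1 receptor (chr7:67952827-68233668, plus strand), had a lowest level of 18.0, a median of 23.5 and a highest of 37.9 CPM with NaKtide. The western diet libraries had 36.8, 50.1, 55.0, 32.3 and 30.0 CPM of Igf1r. The groups overlapped through the highest library with NaKtide, and the log2 fold change was -0.76 (SE 0.205, adjusted p = 0.00959 by edgeR). Insr, the insulin receptor (chr8:3122061-3279617, minus strand), had a lowest level of 20.4, a median of 23.4 and a highest of 28.9 CPM with NaKtide. The western diet libraries had 28.0, 41.7, 38.6, 38.5 and 27.3 CPM of Insr. Western diet libraries 2, 3 and 4 were well above the rest and the other 2 lay within the range with NaKtide. The log2 fold change of Insr was -0.55 (SE 0.174, adjusted p = 0.0191 by edgeR), and it lost its call without western diet library 2 (adjusted p = 0.0643), 3 (0.0505) or 4 (0.0525).

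Lepr, the leptin receptor (chr4:101717404-101815352, plus strand), did not pass the test. It had a lowest level of 0.298, a median of 0.763 and a highest of 4.81 CPM with NaKtide. Western diet libraries had 1.52, 1.46, 1.89, 1.59 and 1.29 CPM of Lepr. The log2 difference was -0.16 with an SE of 0.589 (adjusted p = 0.852 by edgeR). This SE is larger than the whole difference of Insr. The sign turns without the libraries that hold Xist RNA (0.06), with the length trend taken out (0.10) and without library 6 with NaKtide (0.08). The counts do not separate the long, signalling form of Lepr from its short forms.

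Pik3ca, the catalytic PI3-kinase subunit (chr3:32397671-32468486, plus strand), had a lowest level of 29.5, a median of 36.8 and a highest of 49.8 CPM with NaKtide. The western diet libraries had 46.0, 53.9, 54.2, 48.7 and 51.0 CPM. Only the highest library with NaKtide, replicate 3, reached the western diet range. The log2 fold change was -0.44 (SE 0.133, adjusted p = 0.0162 by edgeR). Pik3r1, the regulatory subunit (chr13:101680563-101768217, minus strand), had a lowest level of 42.4, a median of 60.4 and a highest of 77.0 CPM with NaKtide, against 59.8, 110, 116, 71.5 and 53.4 CPM in western diet libraries. The groups overlapped, with western diet libraries 2 and 3 above all others, and the log2 difference of -0.50 (SE 0.249) did not pass (adjusted p = 0.126 by edgeR).

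Akt1 (chr12:112653821-112674884, minus strand) and Akt2 (chr7:27591552-27640826, plus strand), the kinases to which the pathway leads, did not pass the test. Akt1 averaged 182 ± 11.6 CPM with NaKtide (n = 6) and 173 ± 9.60 CPM in western diet libraries (n = 5), with a log2 difference of 0.06, SE 0.0948 (adjusted p = 0.645 by edgeR). Akt2, the form most tied to insulin-driven glucose uptake, averaged 99.7 ± 22.2 CPM with NaKtide and 80.9 ± 19.0 CPM in western diet libraries, with a log2 difference of 0.29, SE 0.175 (adjusted p = 0.208 by edgeR).

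**Figure D2:**
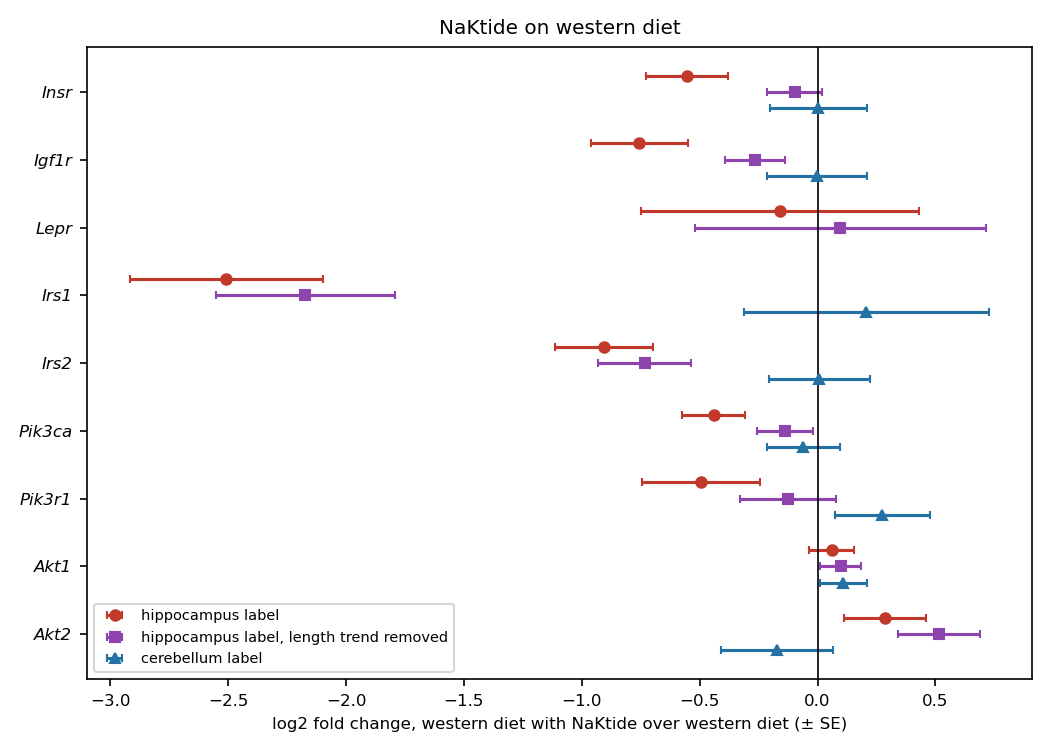
Log2 fold change (± SE) of each gene for western diet with NaKtide over western diet, in libraries labelled hippocampus as fitted (circles) and with the trend in gene length taken out (squares), and in libraries labelled cerebellum (triangles). Without the length trend Irs1 moves to -2.17 and Irs2 to -0.73, and both stay called, while Insr, Igf1r and Pik3ca lose their call.

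Gene length moved with this comparison. Over all genes tested, the median log2 fold change was 0.48 in the shortest of 4 length classes of nearly equal size by summed exons, and 0.14, -0.07 and -0.28 in the next 3. The share of genes called lower was 3.60% in the shortest and 32.1% in the longest class. The longest class starts at 6.43 kb and holds 7 of the 9 genes: Igf1r at 16.8 kb, Insr at 13.7 kb, Pik3r1 at 10.1 kb, Irs1 at 9.14 kb, Pik3ca at 9.09 kb, Akt2 at 7.13 kb and Lepr at 7.05 kb. Irs2 at 6.32 kb and Akt1 at 4.10 kb are in the class before it. With the length trend of each library taken out, 3 of the 9 genes were called, 2 lower and 1 higher, where 27.9% of all genes were called. Irs1 and Irs2 remained lower. Insr had a log2 difference of -0.10 (adjusted p = 0.554 by edgeR), Igf1r of -0.27 (0.119) and Pik3ca of -0.14 (0.389), and Akt2 was called higher at 0.51 (0.0338). Whether length itself sets the difference was not tested.

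**Figure D3:**
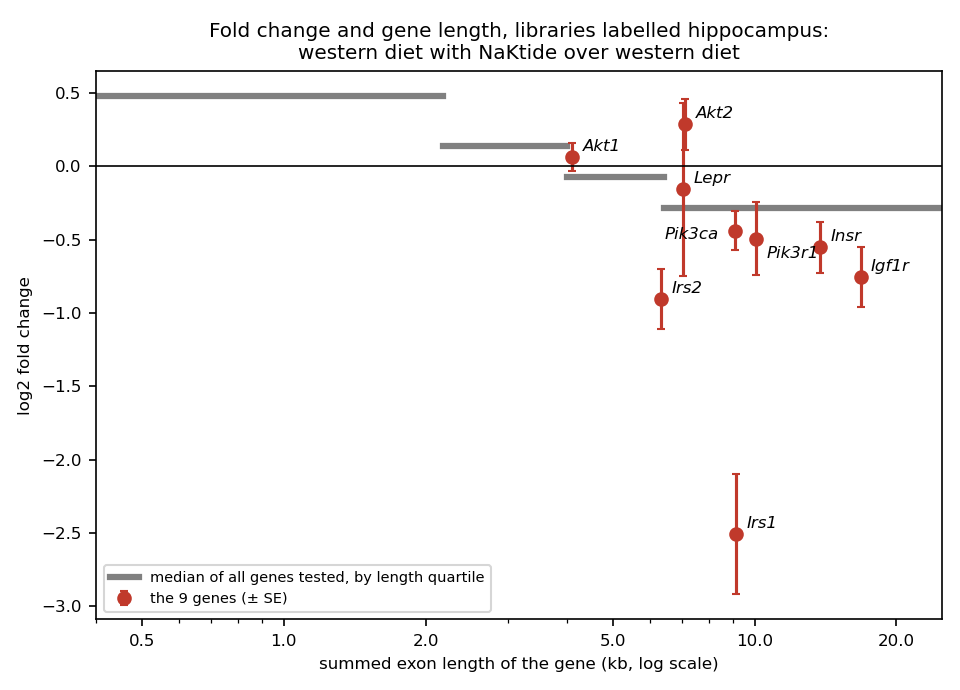
Log2 fold change of the 9 genes (± SE) for western diet with NaKtide over western diet in libraries labelled hippocampus, against summed exon length in kb on a log scale. Grey bars give the median of all genes tested in each of 4 length classes, which runs from 0.48 in the shortest to -0.28 in the longest. Irs1 and Irs2 lie furthest below these medians.

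Markers of cell types and regions also differed between these 2 groups, where 33.7% of all genes were called and 13.2% did not overlap. Only some of the marker lists are given here. Of 6 pan-neuronal markers, 3 were lower with NaKtide, and their summed level ran from 2497 to 4121 CPM with NaKtide and from 4152 to 4807 CPM in western diet libraries, with no overlap. Of 8 dentate granule markers, 6 were lower, with sums of 49.9 to 172 CPM with NaKtide and of 123 to 514 CPM in western diet libraries. The sums of 9 pyramidal neuron markers overlapped, at 169 to 523 CPM with NaKtide and 297 to 665 CPM in western diet libraries. Of 10 striatum markers, 5 were higher, with sums of 328 to 5774 CPM with NaKtide and of 263 to 670 CPM in western diet libraries. Of 10 microglia markers, 6 were higher, with sums of 533 to 754 CPM with NaKtide and of 338 to 540 CPM in western diet libraries. Of 5 blood markers, 4 were higher, with sums of 737 to 3462 CPM with NaKtide and of 240 to 1245 CPM in western diet libraries, and of 8 astrocyte markers 1 was higher and 4 were lower. Their part in the differences of the 9 genes was not tested.

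**Figure D4:**
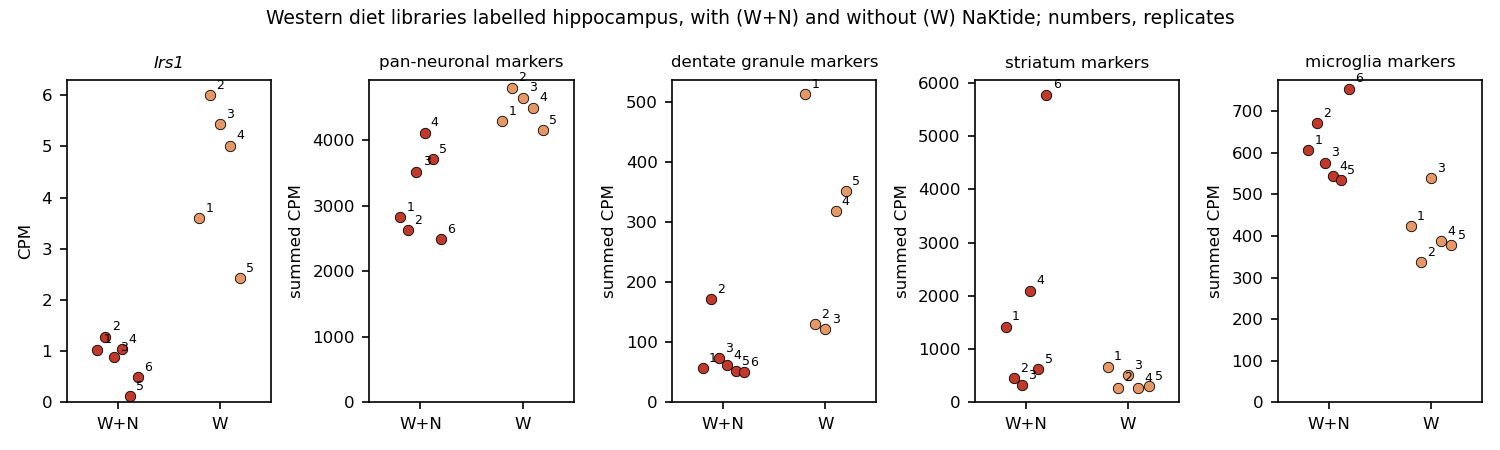
Irs1 level and summed level of 4 marker lists, in CPM, in each western diet library labelled hippocampus, with NaKtide (left in each panel, 6 libraries) and without it (right, 5 libraries). Numbers are replicates. Irs1 and the pan-neuronal sum, at 2497 to 4121 CPM with NaKtide and 4152 to 4807 CPM without it, do not overlap between the groups, while the dentate granule, striatum and microglia sums do.

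The wider pathway around the 9 genes was read from a list of 85 other genes, of which 82 were tested. In the same comparison 22 of them were lower with NaKtide and 3 were higher, or 30.5%, near the 33.7% of all genes. Of 16 downstream kinases 9 were lower and 2 were higher. Rictor, a subunit of the complex mTORC2 that phosphorylates Akt, had a log2 fold change of -1.19 (adjusted p = 0.00404 by edgeR), and Pdpk1, the kinase PDK1 that phosphorylates Akt at its activation loop, one of -1.09 (0.00602). Gsk3b, a kinase that Akt inhibits, had one of -0.88 (0.00635), and Rps6kb1, which encodes S6 kinase 1, one of -0.76 (0.00471). The 2 higher kinases were Map2k2, which encodes the ERK pathway kinase MEK2, at 0.76 (0.00343), and Rps6kb2, which encodes S6 kinase 2, at 1.48 (0.0110).

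Of the PI3-kinase subunits outside the 9, 3 of 6 were lower. Of 17 brakes on the pathway 4 were lower. Of 14 adaptors 2 were lower, of 8 ligands and binding proteins 1, and of 3 receptors 1. Among 18 transcription factors and targets 2 were lower and 1 was higher, Crtc2, a coactivator of CREB, at 0.64 (adjusted p = 0.0237 by edgeR). With the length trend taken out the split of the 82 genes was 11 lower and 9 higher, where 27.9% of all genes were called. In the other comparisons within a region label no gene of the wider list passed edgeR's test.

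**Figure D5:**
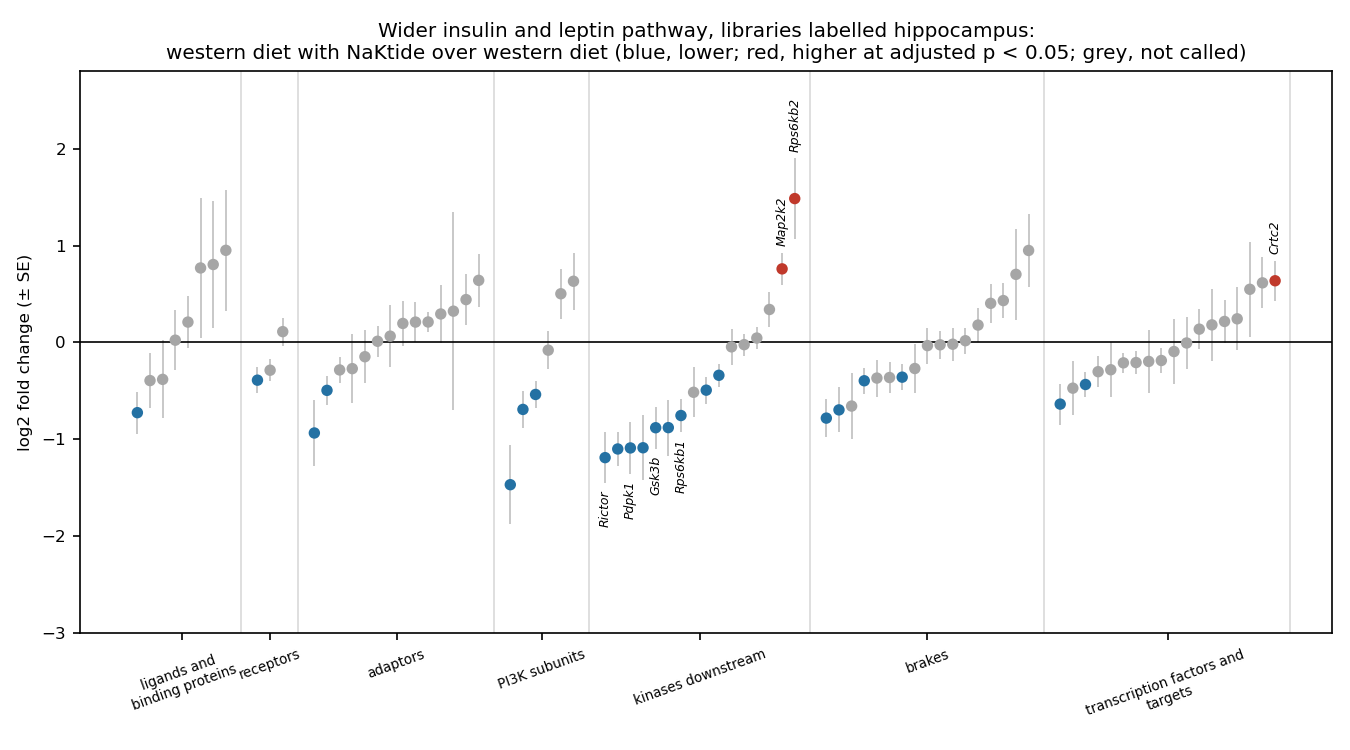
Log2 fold change (± SE) of the 82 tested genes of the wider pathway for western diet with NaKtide over western diet in libraries labelled hippocampus, grouped by role. The 22 blue points are genes called lower and the 3 red points genes called higher at an adjusted p under 0.05; grey points were not called. Names mark the genes given in the text.

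For the western diet against the control diet, both without NaKtide and labelled hippocampus, 7 of the 9 genes had a positive log2 difference and none passed the test. This comparison shares the western diet libraries with the one above, so a sign opposite to it is not independent. By edgeR 0% of the 16442 genes were called, 4046 had an unadjusted p under 0.05, and DESeq2 called 838 genes and none of the 9. Irs1 averaged 4.49 ± 1.46 CPM in western diet libraries (n = 5), against 1.77 ± 0.752 CPM in control diet libraries (n = 6), whose lowest, median and highest levels were 0.901, 1.77 and 2.69 CPM. The groups overlapped in western diet library 5, at 2.42 CPM. The log2 difference of Irs1 was 1.33 (SE 0.378, adjusted p = 0.0923 by edgeR), and it passed without that library (1.49, adjusted p = 0.0489). Irs2 averaged 61.0 ± 13.2 CPM on the western diet and 42.2 ± 12.9 CPM on the control diet, with a log2 difference of 0.52, SE 0.205 (adjusted p = 0.137). Insr differed by 0.41 (SE 0.174, adjusted p = 0.156) and Pik3ca by 0.32 (SE 0.133, adjusted p = 0.153).

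Without the libraries labelled hippocampus that hold Xist RNA, 3 of the 9 genes were called higher on the western diet. They were Irs1 at 1.73, Irs2 at 0.82 and Pik3ca at 0.46, where 13.4% of all genes were called. Of the groups compared, this left out control diet libraries 5 and 6, the closest pair of libraries within any group. These held the highest control diet levels of all 3 genes. The levels were 2.69 and 2.45 CPM for Irs1, 58.1 and 56.1 for Irs2, and 49.7 and 44.0 for Pik3ca. With 2 surrogate variables as covariates Irs1 at 1.38 and Pik3ca at 0.36 were called, with 18.0% of all genes.

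For NaKtide on the control diet, in libraries labelled hippocampus, none of the 9 genes passed the test, and 0% of all genes were called (2720 at an unadjusted p under 0.05, 6 by DESeq2). Insr had 24.2, 16.9, 13.7, 13.6 and 21.3 CPM with NaKtide, against a lowest level of 20.4, a median of 25.9 and a highest of 32.3 CPM on the control diet alone. NaKtide libraries 2, 3 and 4 lay below the control range and the other 2 within it, and the log2 difference was -0.53 (SE 0.179, adjusted p = 0.210 by edgeR). Igf1r averaged 22.4 ± 4.23 CPM with NaKtide and 32.5 ± 7.71 CPM without it, with a log2 difference of -0.52, SE 0.210 (adjusted p = 0.237). Irs1 averaged 1.00 ± 0.554 CPM with NaKtide and 1.77 ± 0.752 CPM without it, with a log2 difference of -0.85, SE 0.443 (adjusted p = 0.332). The direct test of whether the NaKtide difference depended on diet called none of the 9, and 0% of all genes (2399 at an unadjusted p under 0.05, 192 by DESeq2). For Irs1 this difference of log2 fold changes was -1.66 (SE 0.611, adjusted p = 0.230 by edgeR) and for Irs2 -0.65 (SE 0.292, adjusted p = 0.311).

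Between western and control diet, both with NaKtide and labelled hippocampus, none of the 9 genes passed the test, with 0% of all genes called (1756 at an unadjusted p under 0.05, 35 by DESeq2). Insr averaged 24.04 ± 3.32 CPM on the western diet and 17.9 ± 4.72 CPM on the control diet, with a log2 difference of 0.39, SE 0.179 (adjusted p = 0.454 by edgeR), and it was the 1 gene of the 9 with an unadjusted p under 0.05.

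In the libraries labelled cerebellum none of the 8 tested genes passed in any comparison. For western diet with NaKtide against western diet 0% of the 16338 genes were called (679 at an unadjusted p under 0.05, 1 by DESeq2), and the median log2 difference of the 8 genes was 0.0057. Irs1 had 1.21, 1.87, 1.11, 3.42 and 3.03 CPM with NaKtide, against 0.290, 1.88, 1.92, 3.81 and 1.33 CPM on the western diet. These ranges overlapped almost fully, and the log2 difference was 0.21 (SE 0.520), with a sign that turns without western diet library 1 (-0.06) or western diet with NaKtide library 4 (-0.03). Irs2 averaged 42.9 CPM with NaKtide (29.4 to 53.7 CPM over the 5 libraries) and 42.6 ± 11.6 CPM without it. Insr averaged 26.9 ± 8.05 CPM with NaKtide and 26.8 ± 4.13 CPM without it, and Igf1r 30.3 ± 8.97 CPM with NaKtide and 30.4 ± 4.52 CPM without it.

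Among the groups labelled cerebellum, control diet had the lowest means of all tested genes of the 9 but Pik3ca. Its mean of Pik3ca, 50.4 CPM, was the highest of these groups. Insr averaged 26.8 ± 4.13 CPM on the western diet and 18.5 ± 4.32 CPM on the control diet, with a log2 difference of 0.53, SE 0.210 (adjusted p = 0.190 by edgeR), where 0.00612% of all genes were called (3192 at an unadjusted p under 0.05, 3 of the 8 among them, and 154 genes by DESeq2). Irs1 had the western diet values above, against 0.812, 0.791, 0.704, 0.683 and 0.699 CPM on the control diet, or 4 to 5 counts per library. The log2 difference was 1.31 (SE 0.591, adjusted p = 0.235), with 1 western diet library below all 5 control diet libraries. For control diet with NaKtide against control diet, which shares those control libraries, 0.00612% of all genes were called (4816 at an unadjusted p under 0.05, 3 of the 8 among them, and 1450 genes by DESeq2). Igf1r had 30.3, 24.5, 34.6, 37.4 and 43.0 CPM with NaKtide, against 17.9, 15.8, 23.0, 19.1 and 30.3 CPM without it. Only control diet library 5 reached the range with NaKtide. The log2 difference of 0.67 (SE 0.215, adjusted p = 0.0908 by edgeR) passed without that library (0.84, adjusted p = 0.0172), without western diet with NaKtide library 3, which enters only the estimate of spread (0.67, adjusted p = 0.0415), and by DESeq2 (0.66, adjusted p = 0.0430). Insr also passed without control diet library 5 (0.64, adjusted p = 0.0411). Of all genes 26.5% were called without that library, and 8.38% without western diet with NaKtide library 3. With 2 surrogate variables Igf1r was at 0.12 (adjusted p = 0.999) and Insr at -0.06. For western against control diet, both with NaKtide, 0% of all genes were called (396 at an unadjusted p under 0.05, 1 by DESeq2), and for the dependence of the NaKtide difference on diet 0.00612%.

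The NaKtide difference on the western diet was compared directly between the region labels in a fit of all 42 libraries, where 8.84% of the 17088 genes were called, 4.39% higher and 4.44% lower. Of the 9 genes only Irs1 passed, with a difference of -2.69 between its log2 fold changes, hippocampus label minus cerebellum label (SE 0.670, adjusted p = 0.0162 by edgeR). It kept this call without any 1 of the 42 libraries (-3.19 to -2.42) and under the 9 other settings tried (-2.82 to -2.42). For Irs2 the difference was -0.90 (SE 0.305, adjusted p = 0.0541), which passed under 4 of the 9 other settings and in 13 of the 42 fits that left out 1 library. Igf1r differed by -0.73 (SE 0.304, adjusted p = 0.107), Pik3r1 by -0.75 (SE 0.332, adjusted p = 0.127) and Insr by -0.54 (SE 0.272, adjusted p = 0.176). Both Igf1r and Irs2 passed without western diet library 5 labelled hippocampus, and these 2 and Pik3r1 passed without western diet with NaKtide library 3 labelled cerebellum. Of all genes 13.1% were called in the former fit and 23.6% in the latter. Of the wider list, 6 of 82 genes passed this test, 2 with a lower and 4 with a higher difference. Gsk3b had a difference of -1.16, and Rps6kb2 at 2.26, Crtc2 at 1.24, Map2k2 at 0.79 and Sh2b1, an adaptor of the insulin and leptin receptors, at 0.43 had the higher ones.

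In the comparison of the region labels averaged over the 4 groups none of the 9 genes passed the test, where 0.0468% of all genes were called (2192 had an unadjusted p under 0.05). Pik3ca had a log2 difference of -0.17, SE 0.0711 (adjusted p = 0.319 by edgeR), hippocampus label over cerebellum label, and was the 1 gene of the 9 with an unadjusted p under 0.05.

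Within single groups the region labels gave no call among the 9 genes either. In control diet libraries 2.2% of all genes were called, 0.96% higher in libraries labelled hippocampus, and 2.4% had groups that did not overlap, 1.25% with the higher level there. Of the 9 genes 2 did not overlap, and 5 had an unadjusted p under 0.05, as had 4956 of the 17088 genes tested. There Irs1 averaged 1.77 ± 0.752 CPM in libraries labelled hippocampus and 0.738 ± 0.0594 CPM in those labelled cerebellum, with no overlap (log2 difference 1.26, adjusted p = 0.111 by edgeR), and Akt2 did not overlap either (0.52, adjusted p = 0.0983). These Irs1 levels rest on 6 to 22 counts per library labelled hippocampus and on 4 to 5 per library labelled cerebellum. In western diet libraries with NaKtide 1.75% of all genes were called, 1.39% higher and 0.357% lower in libraries labelled hippocampus, and Irs1 had a log2 difference of -1.41 with an adjusted p of 0.11 by edgeR. In western diet libraries Irs1 had a log2 difference of 1.28 (adjusted p = 0.146 by edgeR), where 0% of all genes were called.

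Across the 42 libraries the 9 genes did not form a single pattern. On log2 CPM, Insr and Igf1r had the highest Pearson correlation among the 36 pairs, at 0.84, or 0.75 within groups. Igf1r and Pik3r1 followed at 0.75 (0.68 within groups), and Irs1 and Irs2 had 0.66 (0.46 within groups). Akt2 and Irs2 had the lowest, at -0.45, or -0.41 within groups. These are descriptions, since the points share libraries, depth and makeup of tissue. Of the 11395 genes with a mean of at least 5 CPM, those most like Insr included Ep300 (0.91) and Prrc2c (0.91), and those most like Igf1r were Ep300 (0.91), Kansl1 (0.91) and Ncoa2 (0.90). Irs1 was most like Cpeb3 (0.86), Kcna1 (0.84) and Scaf11 (0.82), and Irs2 most like Ate1 (0.85), Crim1 (0.79) and Camta1 (0.79). Pik3r1 was most like Arap2 (0.90), Hecw2 (0.89) and Cacnb4 (0.89), Pik3ca most like Ubqln1 (0.78), Mapk6 (0.78) and Slc38a2 (0.77), and Akt2 most like Usp2 (0.78), Eepd1 (0.77) and Mgll (0.76). For Akt1 the nearest, Rabl6, Abhd8 and Ccdc106, reached only 0.59, 0.58 and 0.57. For Lepr they were Slc31a1, Trpm3 and Msx1 at 0.66, 0.65 and 0.62.

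Annotated genes on the opposite strand overlap Irs1 (Gm9747), Insr (Gm16180 and Vmn2r-ps88) and Irs2 (9530052E02Rik). Whether the authors counted by strand is not given in the sources used here, so reads of such pairs may not be told apart. Annotated genes on the same strand overlap Pik3ca (Gm37123), Pik3r1 (Gm36638) and Akt1 (Mir6939), where strand does not separate the reads.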

How the data were processed

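The authors deposited raw counts for 54232 Ensembl genes in 42 libraries; per the labels the kit was stranded and for mRNA. Per the submitters' processing notes, Trimmomatic 0.38, HISAT2 2.1.0, DESeq2 1.20.0 and the build GRCm38 were used; which counter and annotation served is not given in the sources used here. A second deposited table holds the signal as normalized counts, each raw count divided by 1 factor per library by the authors, and another deposited table holds FPKM, computed by the authors with 1 factor per gene. Library totals ran from 4669374 to 9521002.

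Groups were taken from the labels. Tests ran on the raw counts with edgeR 4.0.16 in R 4.3.3 (TMM, filterByExpr, quasi-likelihood F test), with Benjamini-Hochberg adjustment over all genes and calls at 0.05. Each region label had its own fit, and all 42 libraries shared 1 fit for comparisons between labels. SE was taken as the log2 fold change divided by the root of F. Levels are CPM with TMM factors of all 42 libraries. FPKM was used only to compare levels between genes and for gene length in the length trend. The fit was also run on simulated counts with known changes in a small set of genes. These lacked the length trend and the marker differences between groups seen here, so that run does not cover them. Genes named are the 9, the up to 6 smallest p in each direction of the wider list and the 3 genes most correlated with each of the 9; some genes that meet this rule are not reported here. The 9 genes, the lists and the settings were chosen with earlier results of these data known. Alternatives were DESeq2 size factors, DESeq2 1.42.0, no low-count filter, compared groups only, a replicate block, 2 surrogate variables (sva 3.50.0), removal of the length trend, leaving out 4 libraries with Xist RNA (hippocampus control diet 5 and 6, hippocampus western diet with NaKtide 6, cerebellum western diet with NaKtide 5), summing hippocampus control diet 5 and 6, and leaving out each library. Those 2 control libraries were the closest pair of any group, where chi-square averaged 2.45 per gene (7.69 in the pair after it), above sampling noise, and were kept apart. Exon lengths and gene coordinates are from GENCODE M21 and promoters from RefSeq (GRCm38.p6).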

Additional observations from a re-analysis of the deposited data

Results flagged for a closer look

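Lepr in western diet with NaKtide library 2 labelled hippocampus was far above the rest of its group, at 4.81 CPM (30 counts) against 0.298 to 1.59 CPM in the other 5. Without it the log2 difference of Lepr between western diet with and without NaKtide was -1.05, against -0.16 with it. Akt1 in western diet with NaKtide library 3 labelled cerebellum stood apart at 230 CPM, against 183 to 195 CPM in the other 4. These were 2 of 72 groups tested for a single library far from the others, where chance gives about 1 in 20, or 3.6. The NaKtide difference of Irs1 on the western diet differed in a direct test between the region labels, by -2.69 on the log2 scale (adjusted p = 0.0162 by edgeR).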

How the results depend on the processing

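For western diet with NaKtide against western diet in libraries labelled hippocampus, the count of 5 genes was 5 or 6 under the 8 settings other than the removal of the length trend, which gave 3, and 4 to 5 with 1 library left out. Of all genes 14.0% to 38.5% were called under those 8 settings, 27.9% without the length trend and 22.9% to 36.7% with 1 library left out. Irs1 and Irs2 were called under all 9 settings and without any 1 library. The test of any difference among the 8 groups gave 2 genes with the length trend removed, where 21.1% of all genes were called. For western against control diet in libraries labelled hippocampus the count of 0 became 2 with 2 surrogate variables. It became 3 without the libraries of that label with Xist RNA, and 0 to 1 with 1 library left out. The shares of all genes called were 18.0%, 13.4% and 0% to 3.14%, in that order. For control diet with NaKtide against control diet labelled cerebellum the count of 0 became 1 by DESeq2 and 0 to 2 with 1 library left out. The shares of all genes called were 8.90% and 0.00602% to 26.5%, in that order. For the NaKtide difference between labels the count of 1 became 2 under DESeq2 size factors, the replicate block, 2 surrogate variables and DESeq2, and 1 to 4 with 1 library left out. The shares of all genes called were 8.95%, 12.7%, 6.95%, 12.7% and 2.40% to 23.6%, in that order. The wider list had 6 genes there, against 10 under the block, 12 by DESeq2 and 3 to 17 with 1 library left out.

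The sign of Lepr turned in the hippocampus comparison with NaKtide, to 0.10 without the length trend and 0.058 without the libraries with Xist RNA (-1.05 to 0.078 with 1 library left out), and between labels to -0.036 with 2 surrogate variables (-0.49 to 0.65). Rptor turned to 0.11 and, for the diet, Pik3r1 to -0.013 without the length trend. The difference of Akt1 between labels ran from -0.11 to 0.0049 and that of Irs1 with NaKtide labelled cerebellum from -0.062 to 0.66 with 1 library left out. With 2 surrogate variables Insr, for control diet with NaKtide against control diet labelled cerebellum, turned to -0.064. The cause was not tested. The alternatives for the wider list were chosen after seeing the data.

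Within a region label, replicate numbers did not pair libraries across groups. There same-numbered libraries had a median correlation of -0.12 (hippocampus) and -0.06 (cerebellum), and 4 of 22 and 3 of 20 correlated best with their own number. Whether same-numbered libraries of a group came from the same animal in both region labels was not tested. The fit for comparisons between labels took all libraries as independent. In the hippocampus comparison with NaKtide the replicate block left the count at 5. At 1 to 46 counts per library, depth limits Irs1 and Lepr.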
